A study of Mus musculus with 6 samples.

Results

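The genes described here are 32 components of the lysosome: the cathepsin proteases, hydrolases of sugar chains and lipids, the proteins of the lysosomal membrane, progranulin (Grn) and the transcription factor Tfeb. They were taken by gene symbol from the deposited count table of 14228 genes. Of the 32 symbols, 31 had a row (Ctso had none and is not analysed here), and 27 passed the filter on low counts that left 10148 genes for testing.

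RNA 3′ ends were counted by MARS-seq in 3 libraries of cancer-associated fibroblasts (CAF) and 3 of normal fibroblasts from the mouse stomach. All mice were 8 weeks old and carried the iLgr5;GLI2A transgenes, in which an active form of the transcription factor GLI2 (GLI2A) can be switched on in Lgr5-expressing stem cells. CAF came from mice given tamoxifen in corn oil by gavage over 5 days, followed by 3 weeks of doxycycline chow with doxycycline in the water for the first 3 days. Normal fibroblasts came from mice given corn oil with neither drug. Effects of the drugs and of tumour growth cannot be told apart in this design. Mice of both groups carried the transgenes, and whether GLI2A was switched on in any of the sorted cells was not tested. Live podoplanin-positive cells were sorted after removal of CD31-, CD45- and EpCAM-positive cells. CAF libraries 1, 2 and 3 held the cells of 1, 2 and 2 mice and normal libraries 1, 2 and 3 those of 1, 1 and 2 mice, and the p-values below measure the spread between these libraries.

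Lysosomes break down material taken up from outside the cell or delivered by autophagy, using hydrolases that work in an acid lumen kept by a proton pump. The hydrolases are made in the endoplasmic reticulum, tagged with mannose 6-phosphate and carried to the lysosome by receptors, but fibroblasts also secrete some of them, and cathepsin K is known as a collagen-cleaving enzyme of osteoclasts and of activated fibroblasts. TFEB and its relatives bind an E-box motif near the start of many lysosomal genes.

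Total counts ran from 644522 in CAF library 1 to 6422568 in CAF library 2, and in the normal group from 768420 to 3259644. A gene with 0 counts throughout could have had up to 0.196 CPM, the count rescaled to the same total in each library by edgeR's size factors, over the CAF group and up to 0.743 CPM over the normal group, the levels of 3 counts. The sorted marker Pdpn was present in all 6 libraries (27.8, 121 and 119 CPM in CAF libraries 1 to 3, 5.71, 34.2 and 18.8 CPM in normal libraries 1 to 3), and so was Epcam, whose cells had been removed (114 to 233 CPM in CAF, 13.8 to 150 CPM in normal libraries). Pecam1, which encodes CD31, reached at most 4.19 CPM in CAF and 9.39 CPM in normal libraries. The 16 marker genes of gastric pit, neck, chief and parietal cells in the table took 0.552%, 0.862% and 0.627% of the counts in the CAF libraries but 17.5%, 13.9% and 4.0% in normal libraries 1, 2 and 3. The 11 fibroblast markers took 1.19%, 3.23% and 3.92% in CAF and 0.461%, 1.01% and 1.71% in normal libraries. In such bulk libraries, fewer cells of a type and less RNA per cell cannot be told apart.

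The promoters of the lysosomal genes are shown first, since many of them carry the motif that TFEB is known to bind. RefSeq windows (GRCm38.p6, from 250 bases before to 50 bases after the start) were at hand for 28 of the 32 genes, not for Ctsb, Ctsh, Asah1 and Npc1. The E-box CACGTG, which reads the same on both strands, was found in 10 of these 28 genes (35.7%), against 2187 of all 27025 genes with such windows (8.09%). Its longer form TCACGTGA, which contains it and is the core of the sites known for TFEB, was found in 4 of 28 (Ctsa, Ctsd, Gla and Mcoln1; 14.3%) against 304 of the 27025 (1.12%). The 10 genes were Ctsa, Ctsd, Ctsf, Ctsl, Gaa, Gla, Glb1, Lamp1, Mcoln1 and Naglu. The 120 bases before the start are printed 5′ to 3′ on the strand of the gene, with each CACGTG in capitals, for 5 genes with the motif and for Ctsk and Gusb, the members with the smallest p-values, which had none in the whole window:
Lamp1 (chr8:13159041-13159160, plus strand): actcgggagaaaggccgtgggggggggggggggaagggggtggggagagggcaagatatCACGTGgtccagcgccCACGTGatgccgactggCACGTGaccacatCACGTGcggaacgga
Mcoln1 (chr8:3500399-3500518, plus strand): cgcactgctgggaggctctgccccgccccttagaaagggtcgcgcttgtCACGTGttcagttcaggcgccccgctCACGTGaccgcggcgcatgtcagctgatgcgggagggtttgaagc
Ctsd (chr7:142387828-142387947, minus strand): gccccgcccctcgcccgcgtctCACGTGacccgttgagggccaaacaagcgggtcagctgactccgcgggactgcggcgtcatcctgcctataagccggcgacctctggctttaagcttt
Glb1 (chr9:114400958-114401077, plus strand): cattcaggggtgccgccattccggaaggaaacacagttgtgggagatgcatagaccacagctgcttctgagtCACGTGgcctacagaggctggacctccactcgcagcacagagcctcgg
Naglu (chr11:101069974-101070093, plus strand): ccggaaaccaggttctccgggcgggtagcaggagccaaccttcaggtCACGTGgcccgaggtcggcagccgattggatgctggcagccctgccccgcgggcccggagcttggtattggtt
Ctsk (chr3:95499090-95499209, plus strand): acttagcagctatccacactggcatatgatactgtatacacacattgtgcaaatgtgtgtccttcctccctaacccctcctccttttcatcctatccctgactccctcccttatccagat
Gusb (chr5:130003050-130003169, minus strand): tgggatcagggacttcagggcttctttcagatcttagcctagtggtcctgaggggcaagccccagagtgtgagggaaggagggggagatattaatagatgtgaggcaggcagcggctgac

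The Lamp1 stretch holds 4 copies of the motif, whose first bases lie 61, 45, 28 and 15 bases before the start, and the Mcoln1 stretch holds 2, at 71 and 45 bases. Ctsd has 1 copy in the stretch, at 98 bases, and another at 245 bases. Glb1 and Naglu have 1 each, at 48 and 73 bases. These matches describe the letters of the windows and not binding.

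None of the 27 tested lysosomal genes differed between CAF and normal fibroblasts at an adjusted p under 0.05. edgeR's quasi-likelihood test called 0 of 27, with adjusted p-values from 0.266 (Gusb) to 0.969 (Grn), while it called 112 of the 10148 genes tested (1.1%), 91 of them higher (0.897%) and 21 lower (0.207%) in CAF. At an unadjusted p under 0.05 the same test took 2 lysosomal genes, Gusb and Ctsk, both with higher means in CAF, against 1557 of all genes (15.3%). DESeq2 also called 0 of 27 (7.81% of all genes), and limma-voom 0 of 27 (0.641% of all genes). In the authors' deposited table the count was 0 of 31 at an adjusted p under 0.05, against 6.37% of all its genes, and the smallest adjusted p was 0.221 for Ctsk. In 0 of the 27 did the CPM of all CAF libraries lie on one side of all normal libraries, a pattern that 2023 of all genes (19.9%) had.

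The log2 fold changes of the 27 genes, CAF over normal, were positive in 17 and negative in 10. Their median was 0.19, against 0.06 over all genes tested, of which 5469 were positive and 4679 negative. Their median absolute log2 fold change was 0.36, and 0.49 over all genes. The standard error had a median of 0.47 and ran from 0.32 (Glb1) to 1.01 (Laptm4a). The approximate 95% interval stayed within 2-fold in both directions for 2 genes, Glb1 and Psap, and within 4-fold for 23, so for most of these genes a difference of 2-fold lay inside the interval.

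**Figure D1:**
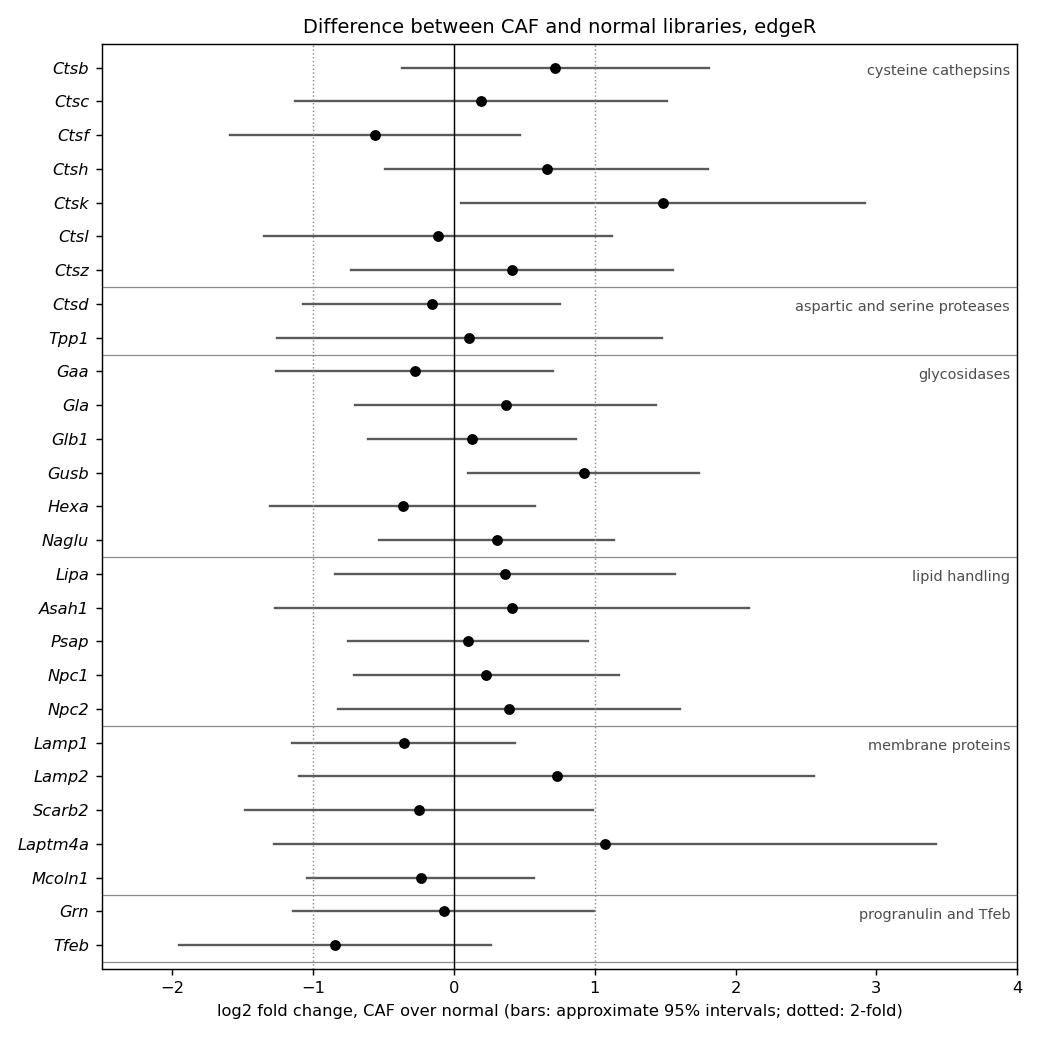
Log2 fold changes (horizontal axis, CAF over normal) of the 27 tested lysosomal genes, grouped by role, as points with approximate 95% intervals from edgeR and dotted lines at 2-fold. The intervals of Ctsk and Gusb lie just above 0 before adjustment, the other 25 include 0, and those of Laptm4a and Lamp2 are the widest.

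**Figure D2:**
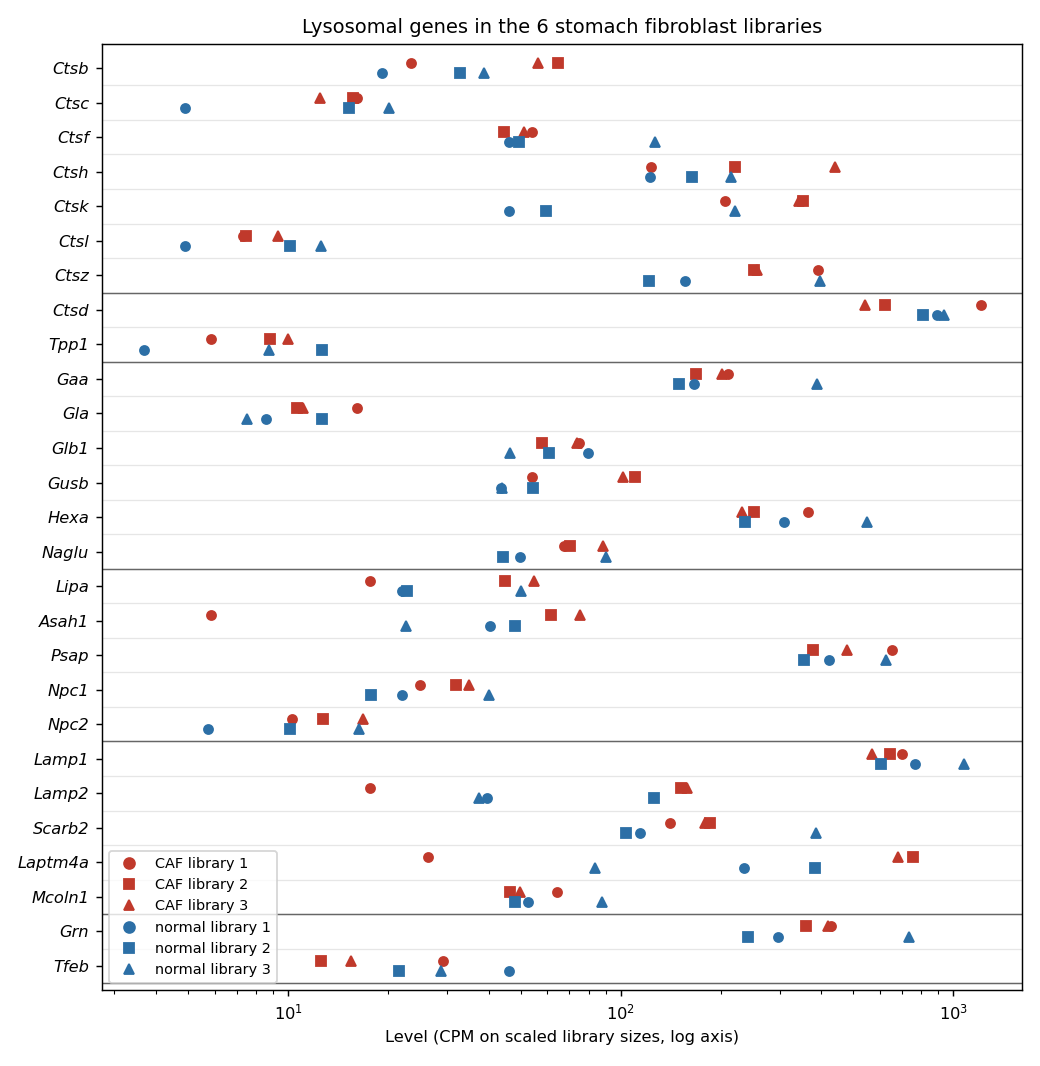
Level of each tested lysosomal gene in the 6 libraries (horizontal log axis, CPM on scaled library sizes), with CAF libraries in red and normal libraries in blue. In every row the ranges of the red and blue points overlap.

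The cysteine cathepsins, papain-like proteases, had 7 tested genes of 9 listed, of which 5 had positive and 2 negative log2 fold changes, with a median of 0.41. Ctsk, cathepsin K (chromosome 3, 95499210 to 95509387, GRCm38.p6), had levels of 206, 353 and 344 CPM in CAF libraries 1, 2 and 3 and of 46.1, 59.5 and 220 CPM in normal libraries 1, 2 and 3. Normal libraries 1 and 2 lay below all CAF libraries, and normal library 3 lay above CAF library 1. The means were 301 ± 82.0 and 109 ± 96.8 CPM (SD, n = 3 each). The fold change was 2.80 (approximate 95% interval 1.03 to 7.57), with an edgeR p of 0.0444 and an adjusted p of 0.307.

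The Ctsk value rested on which normal libraries were used. Without normal library 3 the log2 fold change moved from 1.48 to 2.46, with an edgeR adjusted p of 0.0129, the only call of a lysosomal gene in any of the alternatives run. With normal libraries 1 and 2 both left out it was 0.52, with an adjusted p of 0.650. Normal libraries 1 and 2, in which Ctsk was low, were those with the high share of gland markers. Taking the gland and epithelial marker genes out of the table before scaling left the log2 fold change at 1.48. In this step the scaling, the low-count filter (9854 genes tested), the adjustment over these genes and the fitted spread can change. Other RNA of gland cells stays in the counts. The step therefore cannot show the part of gland RNA. As a share of the summed level of the 11 fibroblast markers, Ctsk stood at 1.84%, 1.23% and 1.01% in CAF and at 0.752%, 0.514% and 1.34% in normal libraries, and on that scale normal library 3 lay above CAF libraries 2 and 3. All 11 markers had positive log2 fold changes themselves (median 1.09), so that scale was not equal between the groups. The part of the gland RNA in the Ctsk difference was not tested. Of 6 osteoclast markers, Calcr, Dcstamp, Ocstamp and Oscar had no row in the table and 2 were measured. Mmp9, a secreted gelatinase, had 105, 72.2 and 24.1 CPM in CAF and 1.22, 7.60 and 1.25 CPM in normal libraries, without overlap (log2 fold change 4.50 ± 0.87, edgeR adjusted p 0.0607, DESeq2 adjusted p 5.9e-05). Acp5, tartrate-resistant acid phosphatase, had 33.7, 29.8 and 31.5 CPM in CAF and 93.9, 77.3 and 18.8 CPM in normal libraries (-1.02 ± 0.54, edgeR adjusted p 0.440). The part of osteoclast-type cells in the Ctsk level was not tested.

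Ctsb, cathepsin B, an abundant lysosomal protease with both endo- and exopeptidase activity, had 23.4, 64.6 and 56.3 CPM in CAF libraries and 19.2, 32.9 and 38.8 CPM in normal libraries. CAF libraries 2 and 3 were above all normal libraries and CAF library 1 was among them. The log2 fold change was 0.72 ± 0.47 (SE), with an edgeR adjusted p of 0.547. Ctsh, cathepsin H, an aminopeptidase, had 123, 221 and 440 CPM in CAF and 122, 163 and 214 CPM in normal libraries (log2 fold change 0.66 ± 0.49, edgeR adjusted p 0.608). Here too CAF libraries 2 and 3 stood above the normal libraries, CAF library 3 the furthest.

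Ctsf, cathepsin F, had 54.1, 44.6 and 51.0 CPM in CAF and 46.1, 49.4 and 126 CPM in normal libraries, and normal library 3 alone was high (log2 fold change -0.56 ± 0.44, edgeR adjusted p 0.634). Ctsz, cathepsin Z, a carboxypeptidase, had 391, 251 and 257 CPM in CAF and 156, 122 and 396 CPM in normal libraries, with normal library 3 slightly above the highest CAF library (0.41 ± 0.49, edgeR adjusted p 0.767). Ctsc, cathepsin C, which activates serine proteases of immune cells, had log2 fold changes of 0.19 ± 0.57, and Ctsl, cathepsin L, of -0.11 ± 0.53. Their levels were low, at 4.90 to 20.0 CPM for Ctsc and 4.90 to 12.5 CPM for Ctsl over the 6 libraries.

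Ctss, cathepsin S, a protease of antigen-presenting cells whose gene follows Ctsk on chromosome 3 (95526786 to 95556405), fell below the filter. It had 1, 17 and 51 counts in CAF libraries and 8, 21 and 2 counts in normal libraries, and its highest level was 26.6 CPM in normal library 2. The summed level of 18 macrophage markers was also highest in that library, at 517 CPM against 90.6 and 61.3 CPM in normal libraries 1 and 3 and 165, 270 and 210 CPM in CAF. Of these markers 6, 1 and 0 were at 0 in CAF libraries 1, 2 and 3 and 4, 0 and 6 in the normal libraries. Ptprc, which encodes CD45, had 0, 40 and 10 counts in CAF and 0, 3 and 0 in normal libraries. Scaled to library size, these were 0, 5.52 and 1.35 CPM in CAF and 0, 3.80 and 0 CPM in normal libraries. None of the 10 macrophage markers tested was called by edgeR, and their part in the cathepsin levels was not tested.

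The aspartic protease Ctsd, cathepsin D, had 1207, 621 and 541 CPM in CAF libraries and 895, 808 and 937 CPM in normal libraries. CAF library 1 was above and CAF libraries 2 and 3 were below all normal libraries, and the log2 fold change was -0.16 ± 0.39 (edgeR adjusted p 0.906). Tpp1, tripeptidyl peptidase 1, a serine protease, had 3.67 to 12.7 CPM over the 6 libraries and a log2 fold change of 0.11 ± 0.59 (edgeR adjusted p 0.962). Ctsa, the protective protein that holds beta-galactosidase and neuraminidase together, had at most 13 counts in any library and was not tested.

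Of 8 glycosidases, 6 were tested, 4 with positive and 2 with negative log2 fold changes and a median of 0.22. Gusb, beta-glucuronidase, which removes glucuronic acid from glycosaminoglycans (chromosome 5, 129989011 to 130003049, GRCm38.p6), had 54.1, 110 and 102 CPM in CAF libraries 1, 2 and 3 and 43.7, 54.5 and 43.8 CPM in normal libraries. The normal libraries lay close together, CAF libraries 2 and 3 were about alike and higher, and CAF library 1 fell just short of the highest normal library. The means were 88.6 ± 30.1 and 47.3 ± 6.20 CPM (SD, n = 3 each), the fold change was 1.90 (approximate 95% interval 1.07 to 3.35) and the edgeR p was 0.0322, or 0.266 after adjustment. Its log2 fold change of 0.92 was 0.17 with CAF libraries 2 and 3 left out.

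Hexa, the alpha subunit of beta-hexosaminidase, which degrades gangliosides, had 366, 251 and 232 CPM in CAF and 308, 236 and 548 CPM in normal libraries (-0.36 ± 0.41, edgeR adjusted p 0.749). Naglu, which removes N-acetylglucosamine from heparan sulfate, had 67.3, 70.4 and 88.1 CPM in CAF and 49.8, 44.3 and 90.0 CPM in normal libraries (0.30 ± 0.36, edgeR adjusted p 0.766). In both genes the highest library was normal library 3. Gaa, acid alpha-glucosidase, which degrades glycogen, had 168 to 209 CPM in CAF and 149 to 388 CPM in normal libraries, again with normal library 3 highest (-0.28 ± 0.42, edgeR adjusted p 0.825). Glb1, beta-galactosidase, was the most precisely measured member: it had 74.6, 57.8 and 73.6 CPM in CAF and 79.6, 60.8 and 46.3 CPM in normal libraries, a fold change of 1.09 with an approximate 95% interval of 0.655 to 1.83. Gla, alpha-galactosidase A, had 10.6 to 16.1 CPM in CAF and 7.50 to 12.7 CPM in normal libraries (0.37 ± 0.46, edgeR adjusted p 0.777). Man2b1, lysosomal alpha-mannosidase, had at most 25 counts and Neu1, neuraminidase 1, at most 18 counts in any library, and both went untested.

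All 5 genes of lipid handling had positive log2 fold changes, from 0.10 to 0.41 with a median of 0.36, and none was called by edgeR (adjusted p 0.795 to 0.940) or had an unadjusted p under 0.05. Psap, prosaposin, the precursor of the saposins that present sphingolipids to their hydrolases, had 653, 378 and 478 CPM in CAF and 423, 356 and 628 CPM in normal libraries. Its fold change was 1.07 with an approximate 95% interval of 0.592 to 1.94. Lipa, lysosomal acid lipase, had 17.6, 44.9 and 54.9 CPM in CAF and 22.0, 22.8 and 50.0 CPM in normal libraries (0.36 ± 0.52). The sterol transporters Npc1 and Npc2, which pass cholesterol out of the lysosome, had log2 fold changes of 0.23 ± 0.41 and 0.39 ± 0.52. Asah1, acid ceramidase, had 5.85, 61.7 and 75.3 CPM in CAF and 40.4, 48.1 and 22.5 CPM in normal libraries (0.41 ± 0.73). CAF library 1 was the lowest of all for Asah1 and Lipa.

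Of the 5 membrane proteins, 2 had positive and 3 negative log2 fold changes, with a median of -0.24. Lamp1, a heavily glycosylated protein that lines the lysosomal membrane, had 699, 643 and 569 CPM in CAF and 767, 604 and 1076 CPM in normal libraries (-0.36 ± 0.34, edgeR adjusted p 0.705). Its relative Lamp2, which also serves autophagy, did not follow it: it had 17.6, 152 and 158 CPM in CAF and 39.6, 125 and 37.5 CPM in normal libraries (0.73 ± 0.79, edgeR adjusted p 0.739). Laptm4a, a small membrane-spanning protein of late endosomes and lysosomes, had 26.3, 758 and 681 CPM in CAF and 234, 383 and 83.8 CPM in normal libraries. CAF library 1 was far below both other CAF libraries and below every normal library, and the fold change of 2.10 had an approximate 95% interval of 0.412 to 10.7 (edgeR adjusted p 0.701). Scarb2, also named LIMP-2, the carrier of glucocerebrosidase, had 140 to 185 CPM in CAF and 104 to 385 CPM in normal libraries (-0.25 ± 0.53). Mcoln1, the calcium channel whose opening is known to lead to TFEB activation, had 46.5 to 64.4 CPM in CAF and 48.1 to 87.5 CPM in normal libraries (-0.24 ± 0.35).

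Tfeb itself had 29.3, 12.6 and 15.4 CPM in CAF libraries and 46.1, 21.5 and 28.8 CPM in normal libraries. CAF libraries 2 and 3 were below all normal libraries, and CAF library 1 was above normal libraries 2 and 3. The fitted level was 1.80-fold lower in CAF (log2 fold change -0.85 ± 0.48), with an edgeR adjusted p of 0.474. Grn, progranulin, a secreted protein cut into granulins in the lysosome, had 429, 360 and 420 CPM in CAF and 297, 242 and 733 CPM in normal libraries, and its log2 fold change of -0.07 ± 0.46 was the smallest in size of the 27.

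The genes with the E-box and those without were set beside each other without a test. The 9 tested genes with CACGTG had a median log2 fold change of -0.16 (from -0.56 in Ctsf to 0.37 in Gla), with 3 positive and 6 negative. The 14 tested genes without it had a median of 0.28 (from -0.85 in Tfeb to 1.48 in Ctsk), with 10 positive and 4 negative. The 4 tested genes with no window had positive values from 0.23 to 0.72. These sets were not matched for transcript GC content, along which the libraries also differed, as described next. It ran from 44.3% (Ctsl) to 59.8% (Naglu) in the tested genes with CACGTG, with Ctsd (55.9%) in the middle of the order. In those without the motif the range was 38.7% (Lamp2) to 63.2% (Tfeb), with Ctsk (48.9%) and Npc2 (51.3%) in the middle. The tested genes with the motif thus tended to have the higher GC content. The part of GC content in these medians was not tested.

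The 6 libraries also differed along the base composition of the transcripts, across both groups. Over 9871 genes, the deviation of a library from the mean of all libraries rose with transcript GC content in CAF library 1, normal library 1 and normal library 3 (Spearman's rho 0.36, 0.18 and 0.26, across genes) and fell with it in CAF libraries 2 and 3 and normal library 2 (-0.42, -0.42 and -0.27). Over the 27 lysosomal genes, which share these libraries and are not independent, rho was 0.53, 0.43 and 0.35 in the first 3 and -0.68, -0.53 and -0.46 in the others. Laptm4a (48.7% GC) had a mean of 607 CPM in CAF libraries 2 and 3 and normal library 2 and of 115 CPM in the other 3 libraries, a ratio of 5.29. For Lamp2 (38.7% GC) these means were 145 and 31.6 CPM, a ratio of 4.60, and for Asah1 (43.5% GC) 61.7 and 22.9 CPM, a ratio of 2.69. In the other direction, Tfeb (63.2% GC) had 34.7 CPM in CAF library 1 and normal libraries 1 and 3 and 16.5 CPM in the other 3, a ratio of 2.10. Not every gene followed its GC content. Ctsc (41.1% GC) had 14.4 CPM in CAF libraries 2 and 3 and normal library 2 and 13.7 CPM in the other 3. Scarb2 (46.3% GC) had 156 CPM in the former and 213 CPM in the latter.

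**Figure D3:**
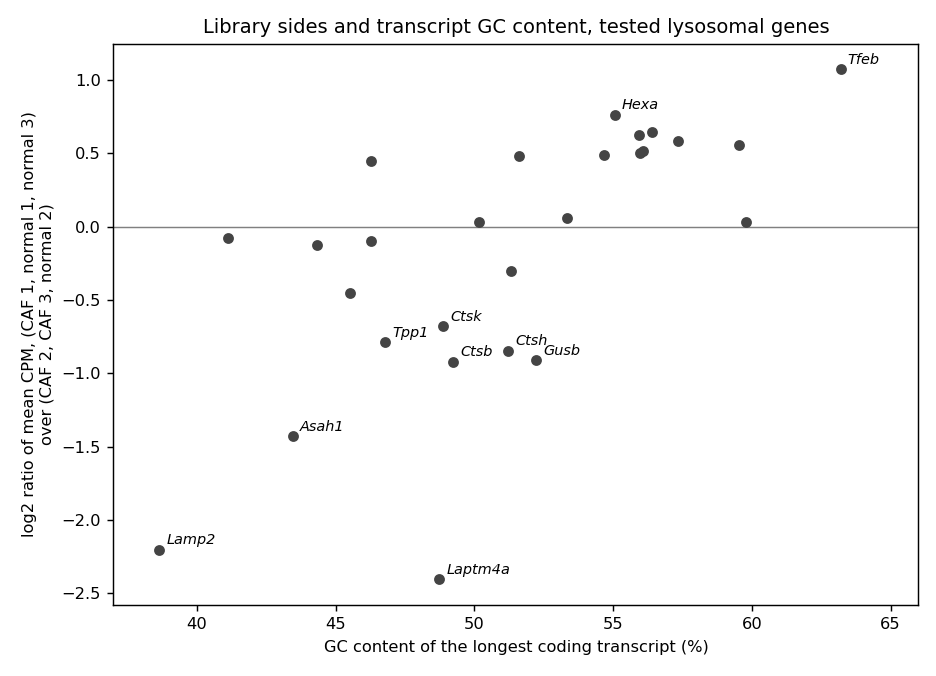
Transcript GC content (horizontal axis, %) of the 27 tested lysosomal genes against the log2 ratio of their mean CPM in CAF library 1 and normal libraries 1 and 3 over that in CAF libraries 2 and 3 and normal library 2 (vertical axis). Laptm4a, Lamp2 and Asah1 lie lowest and Tfeb, the gene with the highest GC content, lies highest.

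CAF libraries 2 and 3 are 2 of the 3 CAF libraries and normal library 2 is 1 of the 3 normal ones, so these sides are unequally spread over the groups. With the side as a block in the edgeR fit, an alternative chosen after seeing the data, the log2 fold change of Laptm4a turned from 1.07 to -0.73, that of Lamp2 from 0.73 to -0.31 and that of Asah1 from 0.41 to -0.60. Ctsk went from 1.48 to 1.58 and Gusb from 0.92 to 0.64, and 0 of the 27 genes were called while 121 genes of all were. What separates the 2 sides was not tested.

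Counted together, the 31 lysosomal genes took 0.524%, 0.558% and 0.596% of all counts in CAF libraries 1, 2 and 3 and 0.303%, 0.336% and 0.655% in normal libraries 1, 2 and 3. The exact 95% binomial interval, which covers counting error only, was 0.507% to 0.542% for CAF library 1 and 0.637% to 0.673% for normal library 3, the library with the highest share. Such intervals take each count as independent. Whether molecular identifiers were collapsed is not given, so they may be too narrow even for counting error. With the gland and epithelial marker genes left out of the total, the shares were 0.529%, 0.564% and 0.600% in CAF and 0.368%, 0.392% and 0.683% in normal libraries. Normal libraries 1 and 2 remained the lowest and normal library 3 the highest. Other RNA of gland cells stays in these totals, so this step cannot show the part of gland RNA. Relative to the summed CPM of the 11 fibroblast markers, the order was another: the lysosomal genes came to 44.0%, 17.3% and 15.2% of that sum in CAF and to 65.6%, 33.2% and 38.4% in normal libraries. The sum itself was not equal between the libraries, at 11231, 28663 and 34049 CPM in CAF and 6135, 11580 and 16386 CPM in normal libraries. All 11 markers had positive log2 fold changes, with a median of 1.09, so this order also follows the marker levels.

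The make-up of the lysosomal counts needs no scaling between libraries. Cysteine cathepsins made up 16.6%, 19.4% and 22.7% of them in CAF libraries 1, 2 and 3 and 10.0%, 12.4% and 16.4% in normal libraries, with CAF library 1 next to normal library 3 (exact 95% intervals 15.4% to 17.9% and 15.4% to 17.4%). Ctsk alone made up 4.17%, 7.13% and 6.64% in CAF and 1.15%, 1.55% and 3.50% in normal libraries, a measure on which every CAF library was above every normal one. Ctsf and Lamp1 were separated the other way on this measure, with every CAF library below every normal one. Ctsf made up at most 1.095% in CAF and at least 1.146% in normal libraries. Lamp1 made up at most 14.1% in CAF and at least 15.7% in normal libraries. Ctsk was singled out here after its values were seen, and no test was made of it. The share of all genes separated in this way was not computed for this measure. On CPM, 0 of the 27 tested genes were separated, against 19.9% of all genes. Ctsd and the other aspartic and serine proteases made up 24.6%, 12.8% and 10.7% in CAF and 22.3%, 21.4% and 15.1% in normal libraries. Membrane proteins made up 19.2%, 36.1% and 31.6% in CAF and 30.0%, 32.9% and 26.5% in normal libraries, and in CAF library 1 the low share went with Laptm4a, which held 0.533% of the lysosomal counts there and 15.3% and 13.2% in CAF libraries 2 and 3. Glycosidases (13.6% to 17.9% over the 6 libraries) and lipid handling genes (10.7% to 14.4%) varied less.

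Beyond the listed genes, 116 tested genes of the same pathway were looked at in 8 lists: other endolysosomal proteases, cathepsin inhibitors, other hydrolases, other membrane proteins, the proton pump, sorting to the lysosome, lysosome regulators and autophagy. edgeR called 1 higher in CAF, the aspartic protease Napsa, and 0 lower (12 had an unadjusted p under 0.05, against 15.3% of all genes, and 18 had no overlap between the groups, against 19.9%). In these lists 54 log2 fold changes were positive and 62 negative, with a median of -0.06. The medians were 0.15 for the 6 other proteases, -0.38 for 3 cathepsin inhibitors, -0.002 for 30 other hydrolases, -0.09 for 19 membrane proteins, 0.08 for 18 proton pump genes, -0.21 for 14 sorting genes, -0.02 for 13 regulators and -0.08 for 13 autophagy genes.

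Napsa, napsin A, an aspartic protease close to cathepsin D and best known from lung and kidney epithelium, rose in CAF. It had 613, 385 and 319 CPM in CAF libraries 1, 2 and 3, from 419, 2790 and 2362 counts, and 1.63, 1.27 and 2.50 CPM in normal libraries, from 4, 1 and 2 counts. The groups were far apart in every library, with a log2 fold change of 7.93 ± 0.52 and an edgeR adjusted p of 0.00483. The adjusted p was 1.7e-25 with DESeq2, 0.0248 with limma-voom and 1.7e-24 in the authors' deposited table. With edgeR it was 0.0844 without normal library 1. Log2 fold changes were 7.48 to 8.34 without normal library 1, without normal libraries 1 and 2 and without CAF libraries 2 and 3. The 7 epithelial markers summed to 1236 to 2819 CPM in CAF and 1099 to 5265 CPM in normal libraries, none was at 0 in any library, 2 had positive and 5 negative log2 fold changes, and edgeR called 0 (3 had an unadjusted p under 0.05). Among them Cldn7, a claudin of tight junctions, had 174, 86.3 and 83.0 CPM in CAF and 19.6, 22.8 and 2.50 CPM in normal libraries, without overlap as for Napsa (edgeR adjusted p 0.0841, DESeq2 0.00139). Krt19 and Cldn18 had the opposite order without overlap (log2 fold changes -2.03 ± 0.41 and -3.71 ± 0.76, edgeR adjusted p 0.0647 and 0.0667, DESeq2 5.5e-05 and 3.0e-05), and Epcam overlapped (114 to 233 CPM in CAF, 13.8 to 150 CPM in normal libraries). The part of epithelial cells in the Napsa level was not tested.

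Ctse, cathepsin E, an endosomal aspartic protease known from the gastric surface epithelium, had 10.2, 35.2 and 109 CPM in CAF and 484, 546 and 81.3 CPM in normal libraries (-2.81 ± 0.93, edgeR adjusted p 0.203). It was high in normal libraries 1 and 2, where gland markers were high, and in normal library 3 it lay below CAF library 3. The log2 fold change was -0.53 with normal libraries 1 and 2 left out, DESeq2 gave an adjusted p of 0.0238, and edgeR without normal library 3 one of 0.0488. Lgmn, legumain, the asparaginyl endopeptidase that processes cathepsins, had 334, 218 and 236 CPM in CAF and 92.6, 119 and 340 CPM in normal libraries (0.51 ± 0.52, edgeR adjusted p 0.721). Like Ctsk and Ctsz it was low in normal libraries 1 and 2 and high in normal library 3.

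**Figure D4:**
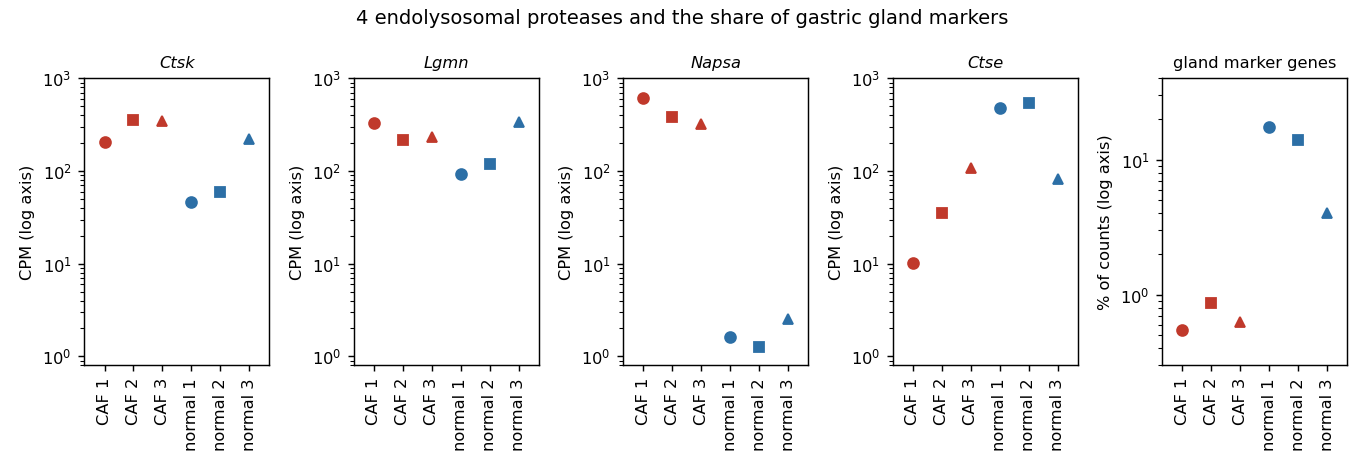
Levels (vertical log axis, CPM) of Ctsk, Lgmn, Napsa and Ctse in each of the 6 libraries, with the share of counts taken by the 16 gastric gland markers (%, log axis) in the panel at the right. Napsa separates all CAF from all normal libraries, while Ctsk, Lgmn and Ctse in normal library 3 lie among the CAF libraries or at their edge.

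Among the inhibitors, Serpinb6a, an intracellular serpin, had 373, 362 and 402 CPM in CAF and 170, 143 and 298 CPM in normal libraries, without overlap (0.90 ± 0.36, edgeR adjusted p 0.290, and 0.0336 without normal library 3). The cystatins Cst3, which is secreted, and Cstb, which is cytosolic, had log2 fold changes of -0.43 ± 0.41 and -0.38 ± 0.30. Of the other hydrolases, Galns, which removes sulfate from keratan and chondroitin sulfate, had a log2 fold change of 0.95 ± 0.41 (edgeR adjusted p 0.323).

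Of the other membrane proteins, the lipid transporter Abca2 had a log2 fold change of -1.30 ± 0.36 and Litaf, a late endosomal adaptor, of 1.13 ± 0.34 (edgeR adjusted p 0.124 and 0.160). DESeq2 gave 0.0158 for Abca2, edgeR without normal library 3 gave 0.0239, and the authors' deposited table gives 0.0279. The tetraspanin Cd63 had 942 to 1206 CPM in CAF and 422 to 1497 CPM in normal libraries (0.29 ± 0.48). In the proton pump, the subunit Atp6v0a1 had 30.7, 34.8 and 45.3 CPM in CAF and 83.7, 74.7 and 91.3 CPM in normal libraries, with all normal libraries above all CAF libraries. Its log2 fold change was -1.16 ± 0.30 with an edgeR adjusted p of 0.104, a DESeq2 adjusted p of 0.00653 and one of 0.0161 in the authors' deposited table. Atp6v1b1, a subunit known from acid-secreting epithelial cells, had 8, 48 and 56 counts in CAF and 1, 1 and 0 counts in normal libraries (edgeR adjusted p 0.0745, DESeq2 0.0151, and 0.0192 in the authors' deposited table).

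In the sorting list, Sort1, sortilin, had 36.6, 23.9 and 23.0 CPM in CAF and 106, 113 and 25.0 CPM in normal libraries (-1.58 ± 0.56, edgeR adjusted p 0.228, and 0.0113 without normal library 3). The mannose 6-phosphate receptors Igf2r and M6pr had log2 fold changes of 0.79 ± 0.41 and 0.26 ± 0.28, with Igf2r at 219, 95.2 and 102 CPM in CAF and 86.5, 60.8 and 90.0 CPM in normal libraries (edgeR adjusted p 0.426 and 0.739). Of the regulators, the kinase Mtor, which holds TFEB in the cytoplasm, had a log2 fold change of -0.95 ± 0.39 (edgeR adjusted p 0.301). Lamtor5, a subunit of the complex that anchors it to the lysosome, had 32.2, 52.2 and 45.2 CPM in CAF and 76.3, 51.9 and 135 CPM in normal libraries (edgeR adjusted p 0.306). In the autophagy list the 2 smallest p-values belonged to Wipi1 (0.72 ± 0.37) and Gabarapl1 (-0.50 ± 0.28), with edgeR adjusted p-values of 0.417 and 0.486.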

How the data were processed

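RNA was counted by MARS-seq in 6 libraries, 3 CAF and 3 normal. Per the submitters' processing notes, cutadapt, STAR, HTSeq and DESeq2 were used with the mouse build mm10. Not given in the sources used here are versions, annotation, use of strand and collapsing of molecular identifiers. How reads of overlapping or near-identical genes were counted is therefore not known. The deposited table holds the authors' raw counts per gene symbol, which were tested here. It also holds the authors' normalized signal and regularized log2 values per library, not used here, and the authors' own log2 fold change, p-value and adjusted p-value for each gene, quoted where named. Each of the 14228 genes listed reached 6 counts in some library.

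Counts were filtered with filterByExpr, given TMM library sizes and tested with the quasi-likelihood F test of edgeR 4.0.16 (R 4.3.3) on the group alone, with Benjamini-Hochberg adjustment over 10148 genes and a threshold of 0.05. Standard errors and 95% intervals came from the F statistic and are approximate. The test was checked on simulated data. Alternatives were DESeq2 1.42.0, limma-voom (limma 3.58.1), other size factors, other filters (none, or 10 counts in 3 libraries), removal of gland and epithelial markers, libraries left out, the mouse number per library as a covariate and, chosen after seeing the data, the GC side as a block. GC content was that of the longest coding transcript of the supplied GENCODE annotation. Gene coordinates and promoter windows came from RefSeq (GRCm38.p6, 31 genes matched by symbol).

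The members and all gene lists were chosen with earlier results of these data known. Library values are given for the 12 tested members of smallest p and for others where space allowed, every member is named, and from each pathway list the called genes or else the 2 of smallest p, besides Napsa, Ctse, Lgmn, Cst3, Cd63, Igf2r, M6pr and the sort markers. A gene taken by this rule is not reported here.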

Additional observations from a re-analysis of the deposited data

How the results depend on the processing

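Of the lysosomal genes tested (27, and 25 to 31 under other filters or with libraries left out), edgeR called 0 in every alternative but the leave-one-out fits, which called 0 to 1 (Ctsk, without normal library 3), and DESeq2 and limma-voom called 0. The number of all genes called was 112, and 792 with DESeq2, 65 with limma-voom, 0 with normal libraries 1 and 2 left out and 0 with CAF libraries 2 and 3 left out, where 1 library stands for a group and is assumed to vary like the other. It ran from 0 (without normal library 1) to 1193 (without normal library 3) with 1 library left out. The count of calls thus rests on single libraries.

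The sign of the log2 fold change turned in some setting for 20 of the 27 genes, the largest of them Laptm4a at 1.07. With limma-voom it was 0.23 for Ctsl and 0.095 for Grn. Without normal libraries 1 and 2 it was -0.40 for Ctsc, -0.36 for Ctsz, -0.24 for Lipa, -0.20 for Naglu, -0.30 for Npc1, -0.20 for Npc2 and -0.28 for Psap. Of the pathway genes outside the 27, it was then -0.41 for Cd63, -0.33 for Lgmn and 0.17 for Sort1. Without CAF libraries 2 and 3 it was -2.67 for Asah1, -0.38 for Ctsb, 0.43 for Ctsd, -0.46 for Ctsh, -1.96 for Lamp2, -3.18 for Laptm4a, -0.85 for Lipa, 0.019 for Mcoln1, -0.11 for Npc1 and -0.050 for Npc2. With the mouse number as a covariate it was -0.30 for Asah1, -0.089 for Laptm4a, -0.16 for Lipa and -0.10 for Tpp1, and with the GC side as a block -0.60 for Asah1, 0.21 for Grn, -0.31 for Lamp2, -0.73 for Laptm4a and -0.24 for Tpp1. Leaving out single libraries gave ranges of -0.026 to 0.89 for Asah1, -0.29 to 0.59 for Ctsc, -0.60 to 0.055 for Ctsd, -0.050 to 0.14 for Ctsl, -0.53 to 0.22 for Gaa, -0.11 to 0.33 for Glb1, -0.36 to 0.51 for Grn, -0.13 to 0.29 for Psap, -0.57 to 0.56 for Scarb2 and -0.36 to 0.55 for Tpp1. For Cd63, outside the 27, the range was -0.053 to 0.83. A range covers only the fits in which the gene was tested. For Ctsl these were the fits without CAF library 1, normal library 2 or normal library 3. The cause of these changes was not tested. The median over the 27 genes, 0.19, was -0.21 without normal libraries 1 and 2, where 31 genes passed the filter, and over 27 genes -0.11 without CAF libraries 2 and 3 and -0.09 with the mouse number as a covariate. Without a filter on low counts the median of all genes was 0.14.

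No paired analysis was possible because the labels give CAF and normal libraries no shared animal, litter or batch, and the numbers used here only name the libraries. With 3 libraries a group and as few as 644522 counts in 1 of them, the approximate 95% intervals of most lysosomal genes (all but Glb1 and Psap) reached beyond 2-fold in at least 1 direction.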
